A study of Brassica rapa with 9 samples.

Results

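The genes described here are those whose transcript level in Brassica rapa seedlings stood apart in plants carrying an introduced Arabidopsis thaliana phytochrome B (AtPHYB), with means within 1.5-fold of each other in the other genotypes of the study. They number 50 of 41020 counted gene IDs, 21 higher and 29 lower in AtPHYB. The members were chosen by their scaled counts in all 9 libraries, so the differences that define them are given as descriptions, without a test. N is the read count of a gene divided by the library's size factor, the median of ratios to the geometric mean over 27988 genes with a read in every library. A member had a mean N of 100 or more, which 18875 genes reached. Its lowest AtPHYB value was at least 1.5 times the highest of the 6 other libraries, or its highest AtPHYB value at most their lowest divided by 1.5. Its mean in G564E also lay within 1.5-fold of its mean in NT. Of the 29 lower members, 4 met the rule as 0 against 0, with no read in AtPHYB and none in at least 1 other library, and these are kept apart below.

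Phytochrome B is a receptor of red and far-red light that switches between an inactive and an active form. In Arabidopsis the active form enters the nucleus, acts on PIF transcription factors and on the COP1 and SPA proteins that target other regulators for breakdown, and so restrains stem elongation and promotes greening. The active form also decays in warmth, which makes the receptor a sensor of temperature. In Arabidopsis the substitution of glutamate for glycine at residue 564 gives a receptor that is hypersensitive to light.

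The study compared non-transgenic Kimchi cabbage (NT, genotype wild-type), plants carrying AtPHYB, and plants carrying a mutant of it whose titles name the substitution (G564E), with 3 libraries each. All were whole seedlings of cultivar Chiifu, 2 weeks old and not heat treated, on 1/2 MS medium with 0.5% sucrose under LD. The sources used here give neither the promoter of the transgene, nor the number of independent lines, nor the number of plants in a library. Any p-value below therefore measures the spread among these libraries only, and that spread may be technical. Plant line and handling follow the genotype and cannot be told apart from the receptor. The IDs come without names. A table of RefSeq genes of another assembly matched 1 of the 41020 IDs and 0 of the members, so members are given by ID and no function is assigned. The transgene and tissue markers could not be checked for the same reason. In whole seedlings, fewer cells that express a gene and less RNA of it per cell cannot be told apart.

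Libraries held 15262884 to 20998541 counts, and some stood apart from their group. NT replicate 3 lay close to AtPHYB. Its Spearman correlation, over log2(N + 1) of the genes with a mean N of 100 or more, was 0.967 with AtPHYB replicate 3 and 0.947 and 0.939 with NT replicates 1 and 2. G564E replicate 1 correlated at 0.843 and 0.841 with the other G564E libraries, which correlated with each other at 0.975. AtPHYB replicate 2 had the smallest size factor (0.7948) and the largest scaled total of the 9 libraries. It placed 21.3% of its counts in its 100 most abundant genes, against 18.4% and 19.0% in AtPHYB replicates 1 and 3.

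Before the bound on G564E, AtPHYB stood above all 6 other libraries by 1.5 times at 48 genes (0.254% of the 18875). The condition on the lower side was met at 80 genes (0.424%). Of these, 72 had a read in all 6 others, and the rest were 0 against 0, with AtPHYB level with at least 1 other library. The rule itself used these shares. The bound removed 27 of the 48 and 51 of the 80. G564E lay below NT at 24 of the 27 genes removed from the higher side, and above NT at 46 of the 51 removed from the lower side. Since AtPHYB also had to clear the G564E libraries, genes on which G564E moved away from AtPHYB passed that condition more easily. Most remaining members sat near the threshold. The ratio between the nearest libraries was under 2 at 15 of the 21 higher members and at 17 of the 25 lower members outside 0 against 0, and 3 or more at 3 in each direction. The members just inside had ratios of 1.507 (higher) and 1.505 (lower), and the genes just outside 1.479 and 1.477. The fold between G564E and NT came up to 1.479 and 1.497 among members, while the nearest genes beyond the bound had 1.546 and 1.510. The lowest mean N of a member was 105.4 among the higher and 103.7 among the lower, and the next genes under the floor had 57.1 and 99.3.

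The same rule applied to each genotype in turn gave 17 higher and 11 lower genes set apart in NT, and 479 higher and 1020 lower genes set apart in G564E. The 50 genes that met it in AtPHYB, 4 of them as 0 against 0, thus stood between 28 for NT and 1499 for G564E. These counts rest on the same 9 libraries and were not tested against one another.

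**Figure D1:**
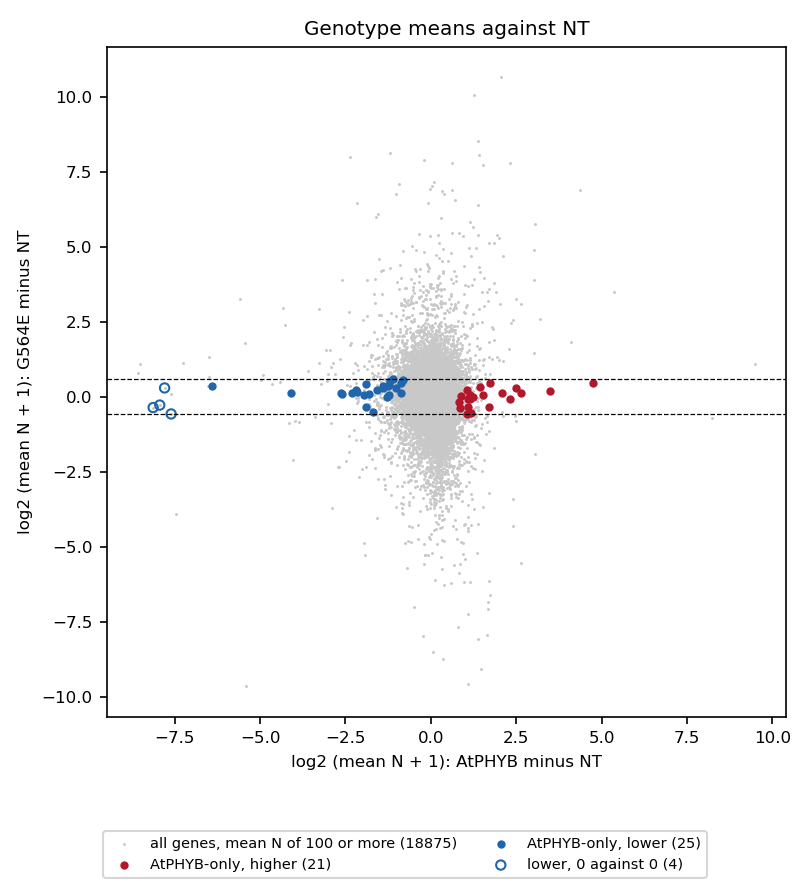
Each point is a gene with a mean N of 100 or more. The horizontal axis is the log2 difference of mean N + 1 between AtPHYB and NT, and the vertical axis that between G564E and NT. Dashed lines mark the 1.5-fold bound. The 21 higher members (red) and 25 lower members (blue) lie to either side between the lines, the 4 members that are 0 against 0 (open circles) lie at the far left, and among all 18875 genes (grey) many lie beyond the lines.

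The higher members ranged in mean N from 105 to 6359, with a median of 792, against a median of 429 over all 18875 genes. Mean N includes the AtPHYB libraries, which the rule took as high here, so part of this difference comes from the choice. Their log2 difference between AtPHYB and NT means ran from 0.82 to 4.79 with a median fold of 2.38, and that between AtPHYB and G564E means from 0.83 to 4.33 with a median fold of 2.66. The median folds of all 18875 genes were 1.01 and 1.04. At 17 of the 21 the AtPHYB mean was at least 2-fold above both other means, and at 5 it was at least 4-fold above both. Summed over the 21 genes, N was 64808 ± 14065 in AtPHYB, 21283 ± 3437 in NT and 19408 ± 3777 in G564E (SD, n = 3 each).

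Bra025598 had the widest gap of the higher members. Its N was 17.5, 42.3 and 30.6 in NT replicates 1 to 3, 515, 1072 and 912 in AtPHYB, and 36.3, 42.5 and 45.8 in G564E. All 3 AtPHYB libraries lay more than 10 times above every other library, and the NT and G564E libraries overlapped. The means were 30.1 ± 12.4, 833 ± 287 and 41.5 ± 4.83 (SD, n = 3 each), so AtPHYB was 27.7-fold above NT and 20.1-fold above G564E.

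The most abundant higher member, Bra020393, had N of 3982, 2105 and 5553 in the NT replicates, 9377, 12309 and 11665 in AtPHYB, and 1727, 4829 and 5686 in G564E. Its levels varied over 3.29-fold among the 6 other libraries, with NT replicate 2 and G564E replicate 1 low. AtPHYB was 2.87-fold above the NT mean and 2.72-fold above the G564E mean.

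Bra021653 and Bra021654, the only members with neighbouring ID numbers, were singled out after their values were seen, as were all other IDs named from here on apart from Bra024871 and Bra037731. Bra021653 had N of 1160, 1198 and 964 in NT, 8407, 20298 and 8724 in AtPHYB, and 1073, 1464 and 1244 in G564E. Bra021654 had N of 770.1, 936 and 985 in NT, 3674, 6171 and 3580.1 in AtPHYB, and 963, 788 and 780.3 in G564E. In both, the 6 other libraries were close together and AtPHYB replicate 2 was the highest library. The AtPHYB mean was 11.3-fold above NT at Bra021653 and 4.99-fold at Bra021654. The rise was therefore unequal: the ratio of Bra021653 to Bra021654 was 1.51, 1.28 and 0.978 in NT, 1.11, 1.86 and 1.59 in G564E, and 2.29, 3.29 and 2.44 in AtPHYB, which did not overlap the others. Whether such IDs share reads was not tested.

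Other higher members differed in how even the remaining libraries were. At Bra006384, N was 226, 225 and 225 in NT, 589, 591 and 672 in AtPHYB, and 272, 295 and 284 in G564E. Every G564E library there lay above every NT library, with the G564E mean at 1.26 of the NT mean. At Bra022809, N was 909.9, 1128 and 1042 in NT, 1807, 1819 and 1804 in AtPHYB, and 879, 923 and 915 in G564E. These were small steps with tight groups, 2.74-fold and 1.76-fold above NT. At Bra015821, by contrast, NT replicate 3 stood at 549 and NT replicates 1 and 2 at 203 and 197, with 987, 1054 and 1060.4 in AtPHYB and 114, 276 and 366 in G564E. At Bra018556, G564E replicate 1 stood at 84.6 and the other G564E libraries at 498 and 663, with 477, 337 and 337 in NT and 1977, 3611 and 1624 in AtPHYB. Over the 21 higher members the highest of the 6 other libraries was 1.28 to 7.83 times the lowest (median 1.91), and under 2 times at 11 of them. The median over all 18875 genes was 2.00.

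Bra036040 and Bra025438 completed the higher members with a nearest-library ratio of 2 or more. Bra036040 had N of 1409, 2150.2 and 1539.5 in AtPHYB, 283, 267 and 360.1 in NT, and 175, 562 and 382 in G564E. Bra025438 had N of 199.6, 164 and 277 in AtPHYB, 40.4, 51.2 and 56.2 in NT, and 73.3, 38.4 and 49.1 in G564E. AtPHYB was 5.60-fold and 4.33-fold above NT, with AtPHYB replicate 2 the highest AtPHYB library at Bra036040 and the lowest at Bra025438. At Bra019644 NT and G564E again did not overlap, as at Bra006384, but with G564E below NT. Its N was 7939, 10172 and 9080.0 in AtPHYB, 4519, 4039.6 and 4426 in NT, and 1905, 3287 and 3586 in G564E, so G564E lay at 0.676 of NT, just inside the bound. Bra026114, among the higher members near the threshold, had N of 1152, 1004 and 995 in AtPHYB, 478, 572 and 643 in NT, and 659.9, 475 and 579 in G564E.

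AtPHYB replicate 2 was the highest AtPHYB library at 16 of the 21 higher members, or 76.2%, against 48.0% of all 18875 genes. The large scaled total of this library and the share held by its most abundant genes move with this pattern, and their part in it was not tested. Without AtPHYB replicate 2 the rule gave 22 higher genes, 21 of them members.

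**Figure D2:**
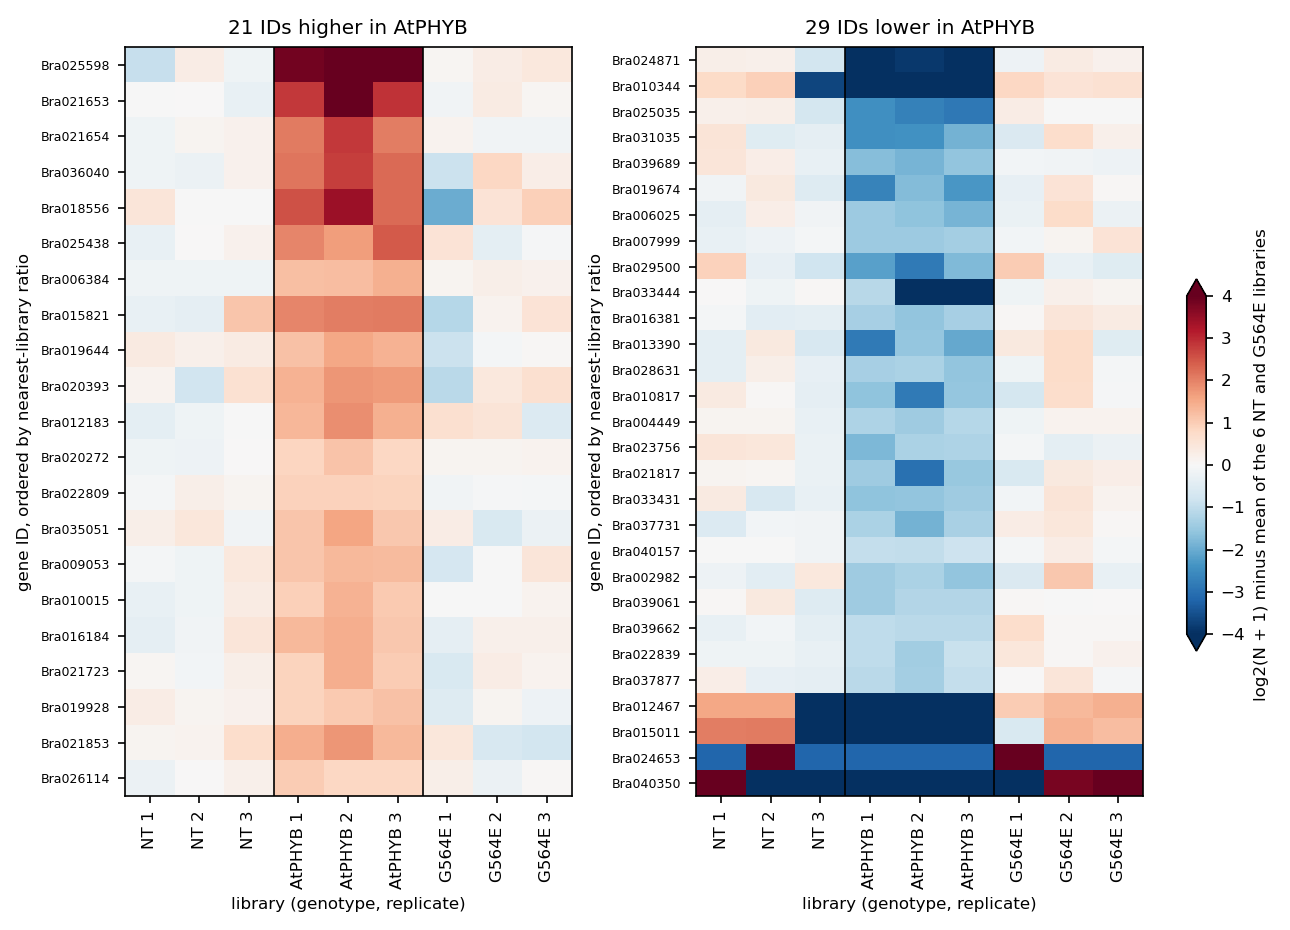
Rows are the 21 higher (left) and 29 lower (right) members, columns the 9 libraries in genotype blocks of 3. Colour is log2(N + 1) minus the mean of the 6 NT and G564E libraries, with values beyond 4 or -4 drawn at the end of the scale. The AtPHYB block stands apart in every row except the lowest 4 rows on the right, which are 0 against 0, and AtPHYB replicate 2 is the darkest column at most higher members.

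The lower members outside 0 against 0 had mean N from 104 to 7245 and a median of 312. That measure includes their AtPHYB libraries, which the rule took as low, so abundance is not compared between the directions. At the 23 of these 25 with a read in every library, the log2 difference between AtPHYB and NT means ran from -4.14 to -0.81 (median -1.41), and that between AtPHYB and G564E means from -4.28 to -0.99 (median -1.70). G564E lay above NT at 22 of the 25, within the 1.5-fold bound, against 11 of 21 higher members and 8850 of all 18875 genes. The rule favours such genes on the lower side, since every G564E library had to lie clear above AtPHYB, so no trait of the members is read from this. With the members that are 0 against 0 included, G564E lay above NT at 23 and below it at 6. Over all 29 lower members, summed N was 9769 ± 1325 in AtPHYB, 24476 ± 2879 in NT and 30446 ± 3605 in G564E (SD, n = 3 each). Bra037731 and Bra037877 made up much of these sums. Their means were 3278 and 2795 in AtPHYB, 7529 and 5647 in NT, and 10928 and 6848 in G564E. At 22 of the 25 the AtPHYB mean was at least 2-fold below both other means, and at 7 at least 4-fold below both.

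Bra024871 had the widest gap of the lower members. Its N was 779.9, 764 and 392 in NT, 34.4, 44.0 and 31.2 in AtPHYB, and 565, 816 and 745 in G564E. NT replicate 3 was the lowest of the 6 other libraries and was still 8.89 times the highest AtPHYB library. The AtPHYB mean of 36.6 ± 6.65, against 645 ± 219.8 in NT and 709 ± 129.5 in G564E (SD, n = 3 each), put AtPHYB 17.6-fold below NT and 19.4-fold below G564E.

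Bra025035 showed the same form at a smaller size, with N of 697, 709 and 375 in NT, 110.4, 91.8 and 83.3 in AtPHYB, and 742, 594 and 603 in G564E. It was 6.24-fold below NT and 6.79-fold below G564E, again with NT replicate 3 as the nearest library.

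The most abundant lower member, Bra037731, had N of 6107, 8337 and 8141 in NT, 3759, 2401 and 3674 in AtPHYB, and 11132, 12322 and 9331 in G564E. The 3 genotypes did not overlap: AtPHYB was lowest, 2.30-fold below NT, and G564E was 1.45-fold above NT, near the bound of the rule.

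Between these sizes stood members with uneven NT and G564E libraries. Bra031035 had N of 23.3, 23.9 and 35.4 in AtPHYB, 191, 95.3 and 104 in NT, and 89.4, 216 and 155 in G564E. Bra029500 had N of 34.4, 21.4 and 45.8 in AtPHYB, 300.4, 126 and 90.8 in NT, and 324, 131 and 113 in G564E. The highest library was 1.52 times the lowest within AtPHYB at Bra031035 and 2.14 times at Bra029500. At Bra029500 replicate 1 was the highest library in both NT and G564E, and at Bra031035 it was the highest in NT and the lowest in G564E. AtPHYB was 4.72-fold and 5.09-fold below NT at these genes. Bra039689 was more even, with 94.2, 85.6 and 103 in AtPHYB, 438, 377 and 253 in NT, and 287, 284 and 272 in G564E. It was one of the few lower members with G564E below NT, at 0.790 of it. Bra004449, at a higher level, had N of 457, 398 and 482 in AtPHYB, 1151, 1143 and 861 in NT, and 939, 1185 and 1186 in G564E, a 2.36-fold difference between NT and AtPHYB. Over the 25 lower members the highest of the 6 other libraries was 1.31 to 27.3 times the lowest (median 2.03).

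Some libraries took an end of the range more often at the lower members than over all genes, and others less often. G564E replicate 2 was the highest of the 6 other libraries at 15 of the 25 (60.0%), against 13.7% of all 18875 genes. NT replicate 3 was the lowest of the 6, and so the nearest to AtPHYB, at 13 of the 25 (52.0%), against 16.4%. Within NT, replicate 3 was the library on the AtPHYB side at 16 of the 25 lower members (64.0%) and at 13 of the 21 higher members (61.9%). Over all genes with AtPHYB below or above NT that share was 49.5% and 51.5%. These shares describe genes that the rule selected on the same libraries.

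A few lower members were close to silent in AtPHYB. Bra010344 had N of 2.03, 0 and 1.04 in AtPHYB, 243, 199 and 210.1 in G564E, and 233, 269 and 9.86 in NT. NT replicate 3 was thus far nearer to AtPHYB than to its own group, yet more than 1.5 times above each AtPHYB library. The 3 AtPHYB libraries hold 3 reads of this gene in all, so no fold is given. Bra033444 divided the AtPHYB libraries, with 75.0 in replicate 1 and no read in replicates 2 and 3, against 142 to 186 in the 6 others. A library with no read allows up to 3 counts, which is an N of 2.42 to 3.77 depending on the library.

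At the 4 members that are 0 against 0, AtPHYB was not set apart from every other library. Bra012467 had no read in AtPHYB or in NT replicate 3, and N of 228 to 333 in the other 5 libraries. Bra015011 was at 0 in the same 4 libraries, at 287 and 293 in NT replicates 1 and 2, and at 44.3, 183 and 163 in G564E. Bra024653 had reads in NT replicate 2 (837) and G564E replicate 1 (653) alone. Bra040350 had reads in NT replicate 1 (732) and in G564E replicates 2 and 3 (278 and 326) alone. At Bra012467 and Bra015011, AtPHYB thus lay below all 3 G564E libraries and NT replicates 1 and 2 and was level with NT replicate 3. At Bra024653 and Bra040350, libraries of NT and of G564E were level with AtPHYB.

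**Figure D3:**
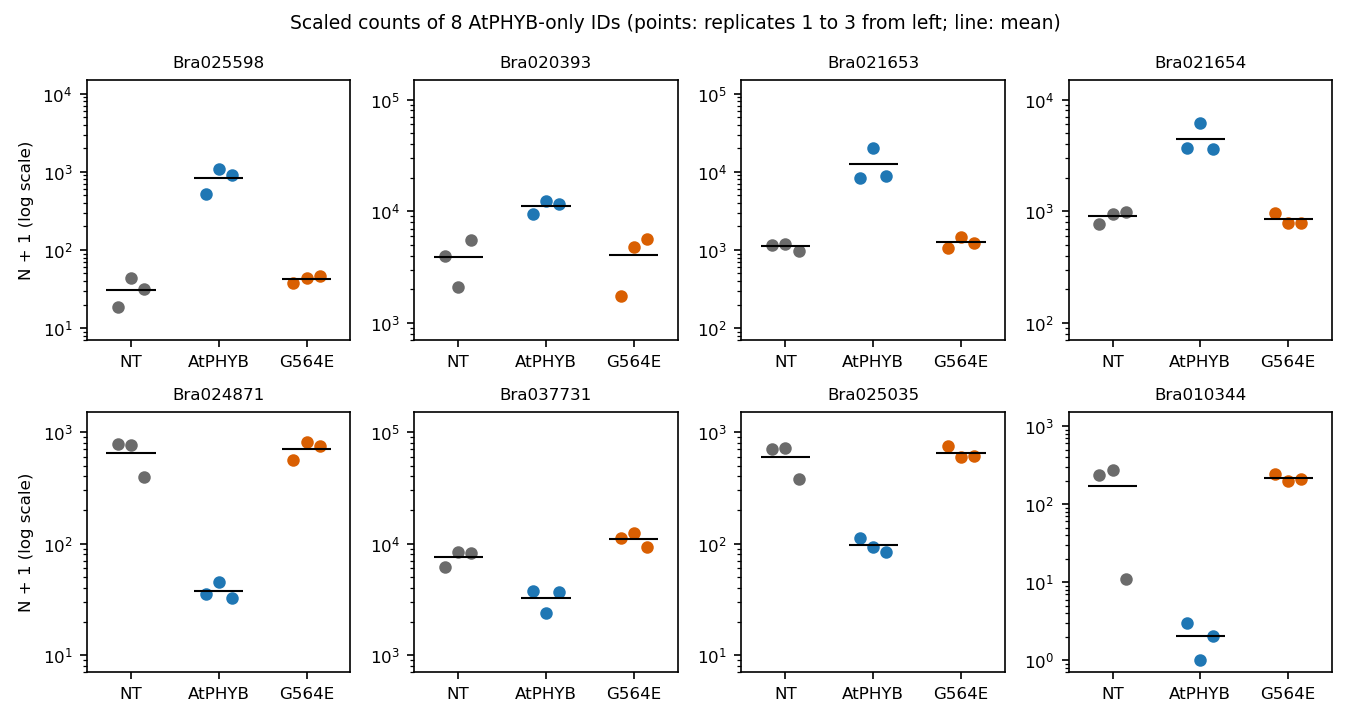
Points are N + 1 on a log axis in the 3 libraries of each genotype for 8 members, replicates 1 to 3 from left to right, and lines are means. In the upper row AtPHYB lies above all other points (Bra025598, Bra020393, Bra021653, Bra021654). In the lower row it lies below them, with NT replicate 3 the nearest point at Bra024871, Bra025035 and Bra010344.

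Whether the AtPHYB libraries shared these shifts was examined with an AtPHYB library that the choice had not used. The rule was applied to 8 libraries, and the AtPHYB library left out was then set against the 6 NT and G564E libraries. These 6 had served in the choice, which took genes at which they lay clear of the other AtPHYB libraries. That favours high shares at the chosen genes, and the shares over all genes carry no such selection. Chosen without replicate 1 were 29 higher genes, and replicate 1 lay above all 6 others at 28 of them, against 13.5% of all genes with a mean N of 100 or more. Replicate 2 lay above all 6 at 22 of 22 such genes, against 26.1%, and replicate 3 at 27 of 27, against 15.5%. On the lower side, where only genes with a read in all 6 others were taken, replicate 1 lay below them at 40 of 41 genes (14.4% of all genes), replicate 2 at 42 of 49 (15.6%) and replicate 3 at 39 of 40 (11.5%). The size of the gap held less often. Replicates 1, 2 and 3 cleared the 1.5-fold margin at 20, 21 and 20 of the higher genes, against 0.539%, 1.82% and 0.502% of all genes. They cleared it at 26 lower genes each, against 2.04%, 2.38% and 1.16%. The libraries of AtPHYB may come from the same plant line, so this speaks of the agreement among these libraries.

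**Figure D4:**
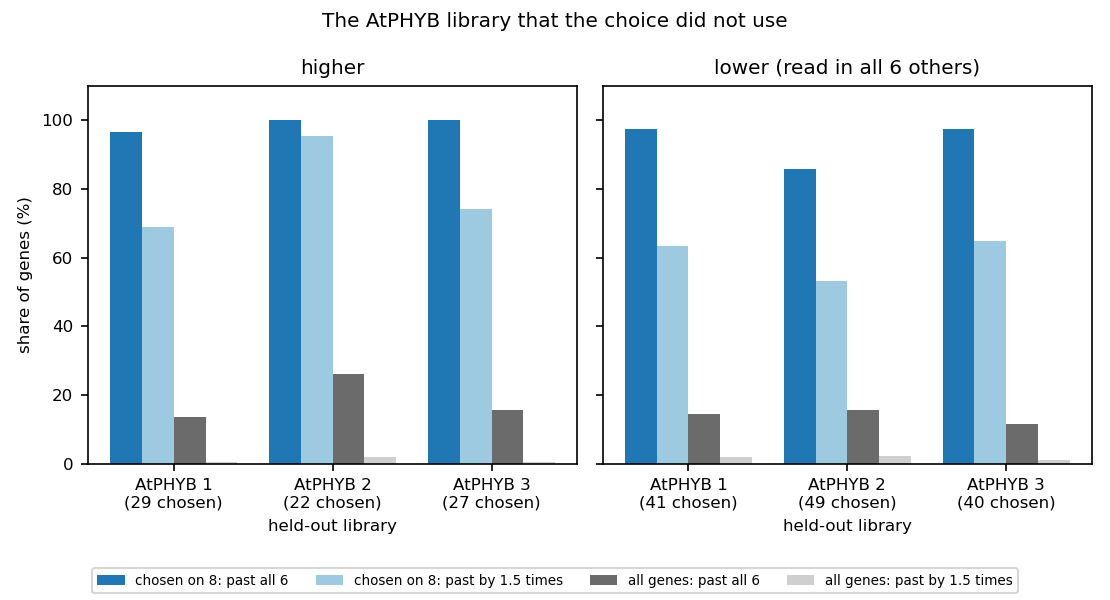
Bars give the share of genes, in percent, at which the AtPHYB library not used in the choice lay past all 6 NT and G564E libraries (dark) or past them by 1.5 times (light). Blue bars are the genes chosen on the other 8 libraries and grey bars all genes with a mean N of 100 or more. Light blue bars reach 53.1% to 95.5%, and dark blue bars at least 85.7%.

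The choice depended on NT replicate 3 far more than on any other library. The values of NT and G564E libraries left out, and the position of NT replicate 3, were examined after seeing the data. Without it the rule gave 199 higher and 126 lower genes, all 21 higher members and 24 of the 29 lower ones among them. When the library left out was then read, NT replicate 3 reached the range of the AtPHYB libraries at 69 of the 199 and at 45 of the 126 genes, and stayed 1.5 times clear of AtPHYB at 25 and 30. NT replicates 1 and 2, treated in the same way, stayed clear at 20 of 21 and 18 of 19 higher genes and at 20 of 20 and 22 of 25 lower genes with a read in all others. G564E replicate 1 stayed clear at 19 of 32 higher and 25 of 41 lower genes. Over all genes at which AtPHYB was at least 2-fold from the mean of NT replicates 1 and 2 on the log2(N + 1) scale (1146 genes), NT replicate 3 lay a median of 63.0% of the way toward AtPHYB. For NT replicates 1 and 2 the genes were chosen anew, each against the mean of the other NT libraries, which included NT replicate 3. The median was -7.11% for NT replicate 1 (673 genes) and 8.13% for NT replicate 2 (756 genes). For NT replicate 3 it was 13.8% at the higher members and 22.3% at the 25 lower members. The rule held these values down because it required NT replicate 3 to stay clear. The small number of members is thus set in large part by the position of NT replicate 3, and whether its label holds was not tested.

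**Figure D5:**
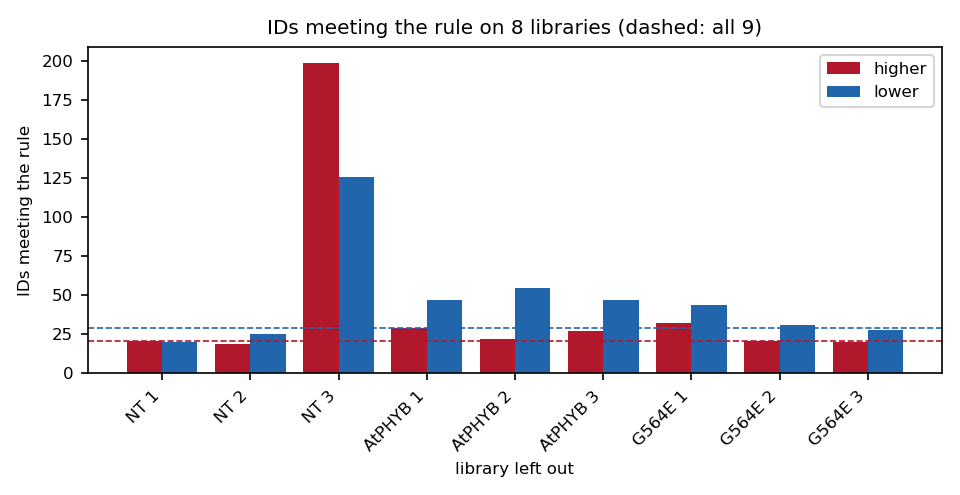
Bars count the genes that meet the rule when each of the 9 libraries is left out in turn, higher in AtPHYB (red) and lower (blue), and dashed lines mark the counts with all 9 libraries, 21 and 29. Without NT replicate 3 the counts are 199 and 126, and with any other library left out they stay between 19 and 55.

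The members were also read in a fit across all genes (edgeR quasi-likelihood test, TMM scaling, 27967 genes tested), as a description, since the rule used these contrasts. All 21 higher members and 28 of the 29 lower members passed its filter on low counts, and Bra024653 did not. Against NT, 7 of the 21 higher members were called higher in AtPHYB at an adjusted p under 0.05 (0.104% of all tested genes were), among them Bra025598, Bra021653 and Bra021654. Of the 28 lower members, 6 were called lower (background 0.0858%), among them Bra024871 and Bra025035. These counts moved by more than 1.5 times with nearly every library. Without NT replicates 1, 2 and 3 they were 2, 2 and 13 for higher and 1, 1 and 16 for lower members. The share of all tested genes called in either direction moved with them, from 0.19% to 0.0209%, 0.0244% and 2.73%. Without AtPHYB replicates 1, 2 and 3 they were 4, 4 and 4, and 2, 1 and 1, with 0.0419%, 0.0521% and 0.0314% of all tested genes called. The G564E libraries set part of the common spread: with replicates 1, 2 and 3 of G564E omitted in turn, the counts were 18, 4 and 5, and 17, 3 and 3, with 1.21%, 0.0842% and 0.0983% of all tested genes called. Nothing about the members is read from these counts.

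Against G564E, all 21 higher members were called lower in G564E than in AtPHYB (16.6% of all tested genes were), and 26 of the 28 lower members higher (18.4%). In the comparison of G564E with NT, which the rule bounds, 1 of the 49 tested members was called, against 27.0% of all tested genes. This was Bra016381, with N of 592, 465 and 476 in NT, 645, 867 and 783 in G564E, and 248, 209 and 249 in AtPHYB. Its G564E mean lay just inside the bound, and its 3 genotypes did not overlap.

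The list also depends on scaling. With library totals in place of size factors, the median log2 differences over the 18875 genes moved. That between AtPHYB and the 6 others fell from 0.02 to -0.26. Most of this shift involved G564E. The median went from 0.02 to -0.09 for AtPHYB over NT, and from 0.05 to -0.38 for AtPHYB over G564E. For G564E over NT, which the rule bounds, it rose from -0.04 to 0.27. The 100 most abundant genes held 11.1% to 11.8% of the counts in G564E libraries, against 17.5% to 18.3% in NT. Their part in the shift was not tested. With library totals 11 higher and 48 lower genes met the rule, and 5 and 19 of the members remained among them. With TMM scaling 19 higher and 31 lower genes met it, of which 19 and 29 were members.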

How the data were processed

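The deposited values are raw read counts per gene ID, 1 file per library, whole and unscaled. FastQC 0.11.8, Trimmomatic 0.39, TopHat2, HTSeq and edgeR are named, without settings, per the submitters' processing notes. The sources used here name no genome build, annotation or strand setting. RNA was extracted from whole seedlings and made into stranded mRNA libraries for NovaSeq sequencing, per the labels' protocols. Of 41020 IDs, 5057 had no read in any library. The members and lists were chosen with earlier results of these data known. A fixed list of light signalling genes could not be filled, since IDs carry no names.

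N, the rule and the counts were computed with pandas 2.3.3 and numpy 2.4.6. IDs were named by a fixed rule: in each direction the widest gap between the nearest libraries and the highest mean N. The count test was edgeR 4.0.16 in R 4.3.3 (quasi-likelihood test, filterByExpr, TMM, a mean per genotype, all 9 libraries in 1 fit, 2-sided, Benjamini-Hochberg adjustment over all tested genes, called under 0.05), with DESeq2 1.42.0 as an alternative. The script was tested on simulated data. Floors of 3 counts cover counting error only. Same-numbered AtPHYB and G564E libraries correlated in their deviations from group means (r = 0.40, 0.32 and 0.13 across genes). Of these libraries 5 of 6 deviated most like their own number, while G564E replicate 3 was nearer to AtPHYB replicate 2 (0.17). The reported fit held no term for the number. A fit with the number as a block (the replicate block) was run as an alternative. No label says what a number marks.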

Additional observations from a re-analysis of the deposited data

How the results depend on the processing

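With library totals as the scale, 11 higher, 48 lower and 42 lower genes with a read in all 6 other libraries met the rule, against 21, 29 and 25, in that order below. The last of these counts was added after seeing the data. A margin of 5/4 gave 75, 102 and 98, and of 2 gave 6, 12 and 8. A floor on mean N of 50 gave 49 and 40 lower genes, of 200 gave 16 and 16, and no floor gave 42, 359 and 111. A bound on G564E over NT of 5/4 gave 13, 16 and 14, of 2 gave 44 and 39 lower genes, and no bound gave 48, 80 and 72. With single libraries left out the counts were 19 to 199, 20 to 126 and 20 to 126. They moved by more than 1.5 times without NT replicate 3 (199, 126 and 126) and without G564E replicate 1 (32, 44 and 41). On the lower side they also moved without AtPHYB replicates 1, 2 and 3 (47, 55 and 47, or 41, 49 and 40 with a read in all others). Of the 21 higher members 12 were chosen in all 9 of these runs, and of the 25 lower members 16.

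Members called higher in AtPHYB than in NT were 7, and 21 in DESeq2, 14 in edgeR on the 6 libraries of these genotypes, 3 with the replicate block and 2 to 18 when each library was omitted in turn. Members called lower were 6, and 26, 12, 3 and 1 to 17 in the same order. The share of all tested genes called was 0.19%, and 3.07%, 0.746%, 0.0608% and 0.0209% to 2.73% in that order, so the members' counts moved with it. The labels link AtPHYB and NT libraries by a number alone, and whether same-numbered libraries shared handling is not known. Their deviations correlated at -0.10, 0.08 and 0.08, and 3 of the 6 libraries deviated most like their own number. The block took the calls over all genes from 53 to 17. For G564E against NT, 1 member was called, 4 in DESeq2, 0 with the replicate block and 0 on the 6 libraries, and 0 to 4 when each library was omitted in turn. The shares of all tested genes were 27.0%, 30.3%, 23.8%, 18.9% and 16.8% to 37.6%. In the edgeR fits with the block and on the 6 libraries, 5 and 4 members had an unadjusted p under 0.05. Among all tested genes, 11031 of 27967 and 9791 of 27460 had one. For G564E against AtPHYB the calls were 19 to 21 and 22 to 26 over such omissions, and the replicate block gave 21 and 25. Of all tested genes, 21.1% to 45.3% were called in either direction over the omissions. The block gave 32.3%, and the reported fit 35.0%. The cause of these differences was not tested. The 44 recomputed log2 differences of the 4 IDs named by the fixed rule kept their direction, and 2 moved beyond 1 SD, both with library totals. Depth limits the precision of lower members with few reads in AtPHYB (2, 0 and 1 at Bra010344, and 34, 17 and 44 at Bra029500).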

Other observations

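ID numbers were not used by the rule. They are no coordinates, and whether neighbouring numbers lie side by side in the genome was not examined. Bra021653 and Bra021654 were the only members within 5 ID numbers of another member. The ID before them, Bra021652, was no member and had N of 1455 ± 498 in AtPHYB, 793 ± 81.5 in NT and 577 ± 121 in G564E (SD, n = 3 each), and Bra021655 and Bra021656 had no read in any library. At the 18 genes next in number to a higher member that were not members themselves and had a mean N of 100 or more, the log2 difference of mean N + 1 between AtPHYB and the 6 others ran from -0.73 to 1.98. Its median was 0.20, and 13 were above 0. At the 21 genes next to a lower member it ran from -0.98 to 0.98, with a median of -0.13 and 7 above 0. Over all 18875 genes the median was 0.02, the quartiles were -0.29 and 0.30, and 9774 were above 0. Bra015820, next to Bra015821, and Bra019645, next to Bra019644, had the widest differences among the neighbours of higher members, 1.98 and 1.40. These values were computed after seeing the data and are given without a test.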
